A study of Rattus norvegicus with 4 samples.

Results

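Complex I, the NADH:ubiquinone oxidoreductase of the inner mitochondrial membrane, is described here through the rat genes whose RefSeq symbol begins with Nduf, measured in NR8383 cells exposed to carbon black. The RefSeq table holds 105 such symbols, of which 56 are protein-coding and 49 are pseudogenes. Of the 56, 42 genes were matched to a probe, through 52 probes, out of 16581 named genes in all. No pseudogene was matched. NR8383 is a continuous line of alveolar macrophages from normal rat lung lavage, and after 20 passages it received carbon black (grade Printex 90, an industrial soot pigment of very fine particles) at 0.9 cm²/cm² for 4 h. Only this 1 exposed group was analysed here, as 4 biological replicates, each on its own 1-colour array, and all 4 arrays lay on 1 slide with 1 scan. Arrays of unexposed cells were not used here, so no effect of the exposure was computed. The line is a single cell line, and a level cannot tell fewer RNA copies per cell from fewer cells carrying them.

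Complex I passes electrons from NADH to ubiquinone and uses the energy to pump protons across the membrane. It is built from a peripheral arm in the matrix, which holds the N module (NADH oxidation) and the Q module (ubiquinone reduction), and a membrane arm with a proximal and a distal part. The hydrophobic pumping subunits are encoded in mitochondrial DNA and were not analysed here. A set of assembly factors builds the complex without staying in it. In macrophages the complex is known for its part in the shift between respiration and glycolysis on activation, and as a source of reactive oxygen species. The placement of subunits and the roles below are known mainly from human, bovine and mouse work.

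Each array held 45598 probes, of which between 37.5% and 40.9% were marked well above background by the scanner software, and no spot was saturated. Levels are on a log2 scale on which 0 is the 75th percentile of the processed intensities of an array. It describes 1 probe's signal and is not set against another probe's. The lowest signal marked well above background corresponded to a level of -2.29, -3.05, -2.56 and -2.40 on replicates 1, 2, 3 and 4. Of 10 measured macrophage markers 8 had signal throughout, and Adgre1 and Marco had none. Of 27 measured markers of epithelium, lymphocytes, granulocytes, fibroblasts and endothelium 0 had signal throughout and 25 had none, while S100a8 and Cdh5 passed on 2 arrays each.

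Nearly all measured complex I genes had signal. On all 4 arrays 39 of the 42 passed that mark (92.9%), against 47.9% of all named genes. The exceptions were Ndufa10, which was marked on 2 arrays (8.06% of named genes were marked on 1 to 3 arrays), and Ndufs4 and Ndufa4l2, which were marked on none, as were 44% of named genes. The other 14 protein-coding symbols were not matched to a probe. They were 6 subunits or assembly factors (Ndufa3, Ndufa8, Ndufb1, Ndufc1, Ndufs6 and Ndufaf2) and 8 copies with related names (Ndufb11b, Ndufb3l1, Ndufb3l2, Ndufb3l3, Ndufb4l1, Ndufb4l3, Ndufb4l4 and Ndufb4l5).

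**Figure D1:**
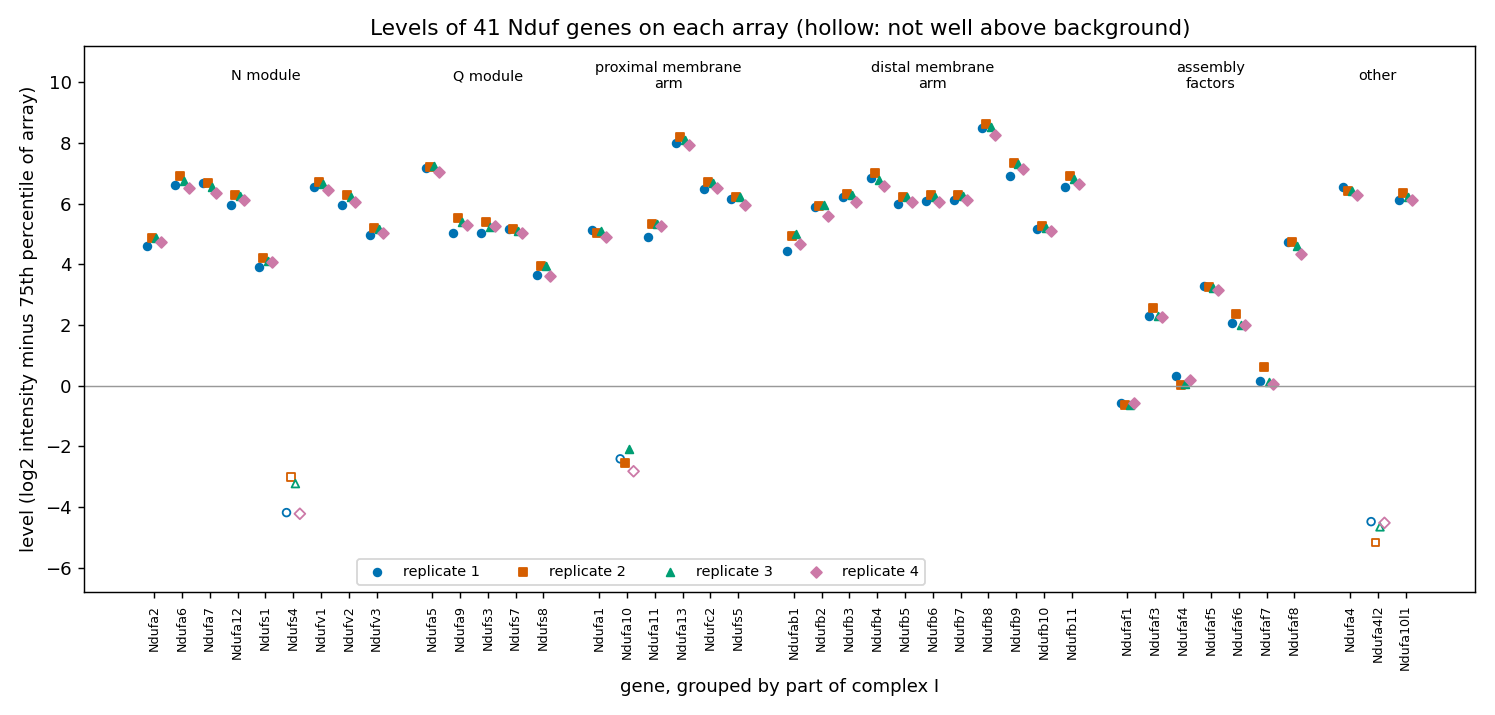
Level of 41 of the 42 measured Nduf genes (log2 intensity minus the array's 75th percentile, vertical axis) on each of the 4 arrays, grouped by part of complex I. Ndufs4 and Ndufa4l2 lie among the hollow points, which mark signals not well above background, and 35 genes detected on all arrays have their 4 points within 0.5 log2 units.

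The upstream sequences of the genes without signal and of relatives with signal are shown so that genes with and without signal stand side by side. They are the 250 bases before the RefSeq start site (build GRCr8), 5′ to 3′, with matches to the motifs searched in capitals where the whole match lies before the start site. Matches that cross the start site are left in lower case and given in the text. The palindromic consensus of NRF1 was searched, as was CCGGAAG, the core bound by ETS factors such as GABPA. For the factor YY1 the letters were AAGATGGC. For SP1 they were GGGCGG. The TATA box was searched as TATAAA. The core of the hypoxia response element was searched as ACGTG. For CREB and ATF factors they were TGACGT. Both strands were read, in a window that also holds the first 50 transcribed bases. Ndufs4 and its N module neighbour Ndufa6 come first, then Ndufa11, which holds overlapping NRF1 letters, and last the paralogues Ndufa4 and Ndufa4l2.
Ndufs4 (chr2:47794915-47795164, minus strand): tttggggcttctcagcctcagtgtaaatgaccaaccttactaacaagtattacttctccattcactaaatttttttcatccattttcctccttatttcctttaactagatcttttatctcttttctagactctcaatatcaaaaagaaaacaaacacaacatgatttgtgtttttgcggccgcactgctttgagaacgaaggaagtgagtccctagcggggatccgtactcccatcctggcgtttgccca
Ndufa6 (chr7:115750318-115750567, minus strand): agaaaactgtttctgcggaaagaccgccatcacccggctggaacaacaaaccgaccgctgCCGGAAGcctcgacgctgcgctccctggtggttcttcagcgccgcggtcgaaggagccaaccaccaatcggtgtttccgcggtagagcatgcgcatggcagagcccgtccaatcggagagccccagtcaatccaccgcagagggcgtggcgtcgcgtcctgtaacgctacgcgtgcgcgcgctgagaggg
Ndufa11 (chr9:1637364-1637613, plus strand): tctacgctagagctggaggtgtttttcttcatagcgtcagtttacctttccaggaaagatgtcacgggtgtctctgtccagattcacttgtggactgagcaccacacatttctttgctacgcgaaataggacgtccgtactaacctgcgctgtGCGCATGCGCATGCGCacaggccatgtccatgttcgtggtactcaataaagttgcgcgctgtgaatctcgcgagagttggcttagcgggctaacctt
Ndufa4 (chr4:40975560-40975809, minus strand): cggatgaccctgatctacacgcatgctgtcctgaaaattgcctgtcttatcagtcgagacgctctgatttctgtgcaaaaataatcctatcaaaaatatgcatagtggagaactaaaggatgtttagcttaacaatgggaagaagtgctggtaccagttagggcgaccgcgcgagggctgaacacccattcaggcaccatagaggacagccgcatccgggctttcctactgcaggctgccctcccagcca
Ndufa4l2 (chr7:65241919-65242168, plus strand): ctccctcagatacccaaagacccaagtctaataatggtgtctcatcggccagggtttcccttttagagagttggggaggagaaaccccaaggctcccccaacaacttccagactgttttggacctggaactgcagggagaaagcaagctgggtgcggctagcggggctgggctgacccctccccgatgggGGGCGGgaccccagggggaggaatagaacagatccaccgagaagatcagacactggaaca

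Ndufs4 had no match before its start site and a YY1 match at positions 5 to 12 after it. Its promoter window was the poorest in G and C among the members, at 43.3%, while the median was 57.2% over 38 members with a promoter in the table and 51.7% over all 33469 promoters. Ndufa6 held an ETS match at -190 to -184, an SP1 match across the start site at -3 to 3 and a YY1 match at 16 to 23. Ndufa4l2 held an SP1 match at -60 to -55 and a YY1 match across the start site at -1 to 7, and Ndufa4 held none. In Ndufa11 the NRF1 letters occurred at -97 to -88 and again at -91 to -82, so that the matches overlap.

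Over the 38 members, the ETS letters were found in 9 (23.7%, against 8.75% of all promoters), the NRF1 letters in 3 (7.89% against 0.852%) and the YY1 letters in 8 (21.1% against 3.17%). At least 1 of these motifs was present in 17 members, against 12.03% of all promoters. Besides Ndufa11, the NRF1 letters were found in the promoters of Ndufaf4 and Ndufaf5. The SP1 letters were found in 16 members (42.1% against 33.1%), the hypoxia core in 9 (23.7% against 19.3%), the CREB and ATF letters in 2 (5.26% against 7.94%) and the TATA letters in 2, Ndufa2 and Ndufa7 (5.26% against 14.2%). These matches are a description of letters and show no binding. Whether the letters or the share of G and C bear on a gene's signal was not tested.

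The N module oxidises NADH. Of its 10 genes 9 had a probe and 8 had signal on all arrays. Ndufv1, the subunit that binds NADH and its flavin cofactor, had levels of 6.56, 6.73, 6.64 and 6.44 on replicates 1, 2, 3 and 4, with a mean of 6.59 ± 0.12 (SD, n = 4). Ndufv2, an iron-sulfur subunit beside it, had levels of 5.97, 6.29, 6.21 and 6.06 (6.13 ± 0.14). Both were highest on replicate 2, and Ndufv1 was lowest on replicate 4 while Ndufv2 was lowest on replicate 1. The largest iron-sulfur subunit, Ndufs1, had levels of 3.92, 4.22, 4.10 and 4.07 (4.08 ± 0.12), again highest on replicate 2. Ndufa12, an accessory subunit and paralogue of the assembly factor Ndufaf2, had levels of 5.95, 6.28, 6.26 and 6.13 (6.16 ± 0.15).

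Ndufs4, an accessory subunit needed for a stable N module, was not well above background on any array. Its levels of -4.18, -3.01, -3.22 and -4.22 on replicates 1, 2, 3 and 4 are bounds only. The processed intensities behind them were 6.02, 11.6, 6.81 and 3.43. The software's weaker mark, for a signal positive and significant against background, was nevertheless set for this probe on 4 arrays. No other probe was matched to Ndufs4, and whether this probe can report its transcript was not tested. The remaining accessory subunits of the module had SDs between arrays of 0.17 for Ndufa6, 0.15 for Ndufa7, 0.13 for Ndufa2 and 0.12 for the brighter probe of Ndufv3.

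The Q module carries electrons to ubiquinone, and all 6 of its genes had signal on all arrays. Ndufs7, a subunit at the ubiquinone pocket, had levels of 5.16, 5.16, 5.09 and 5.02 (5.11 ± 0.067), a narrow spread.

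Ndufs8, an iron-sulfur subunit of the same module, had levels of 3.66, 3.95, 3.94 and 3.62 (3.79 ± 0.18). Ndufs3, a structural core subunit, had levels of 5.05, 5.39, 5.22 and 5.26 (5.23 ± 0.14). The accessory subunit Ndufa9, at the joint with the membrane arm, had levels of 5.04, 5.54, 5.39 and 5.29 (5.32 ± 0.21). Ndufs3 and Ndufa9 were both lowest on replicate 1 and highest on replicate 2, whereas Ndufs8 was lowest on replicate 4. Ndufa5 was steadier, at 7.17 ± 0.088.

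In the proximal membrane arm 6 of 9 genes had a probe, and 5 had signal on all arrays. Ndufa11, an accessory membrane subunit, had levels of 4.89, 5.33, 5.34 and 5.27 (5.21 ± 0.21), so that replicate 1 stood below the others. Ndufa13, also known as GRIM-19, was measured by a pair of probes that ran alike, at 7.99, 8.21, 8.08 and 7.94 with the brighter and 7.81, 8.02, 7.97 and 7.84 with the other. Ndufa1, Ndufc2 and Ndufs5 had means of 5.05 ± 0.10, 6.60 ± 0.12 and 6.14 ± 0.12.

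Ndufa10, a nucleoside kinase-like subunit of this arm, had levels of -2.41, -2.54, -2.07 and -2.82, and its probe was well above background on replicates 2 and 3 only. On the other 2 arrays its values are bounds. A gene with a related name, Ndufa10l1, for which the RefSeq table lists Ndufa10 as an older symbol, had signal on all arrays with both of its probes. The brighter had levels of 6.12, 6.36, 6.23 and 6.12, the other 4.60, 4.93, 4.88 and 4.78. The Ndufa10 probe carries the accession of a predicted transcript, and which transcripts each probe can bind could not be checked, because probe sequences were not used here.

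The distal membrane arm had signal for all 11 genes with a probe, of 12 in all. Ndufab1, the mitochondrial acyl carrier protein, had levels of 4.44, 4.94, 5.01 and 4.67 (4.77 ± 0.26), the widest spread among members with signal on all arrays. Its second probe was not well above background on any array. Ndufb8, a subunit much used as a protein marker of assembled complex I, had levels of 8.51, 8.64, 8.51 and 8.28 (8.49 ± 0.15). The 3 probes of Ndufb4 all had signal, with SDs of 0.17, 0.10 and 0.17. Ndufb10 and Ndufb7 were the steadiest of the arm, at 5.19 ± 0.071 and 6.19 ± 0.081. The other SDs of the arm lay between 0.11 for Ndufb6 and 0.20 for Ndufb9.

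Of 8 assembly factors 7 had a probe, and all 7 had signal on all arrays. Ndufaf1, which acts in the assembly of the membrane arm, had levels of -0.56, -0.64, -0.64 and -0.56 (-0.60 ± 0.047), the narrowest spread of all tested members. Ndufaf3 and Ndufaf4 act together on an early intermediate with the Q module. Ndufaf3 had levels of 2.30, 2.55, 2.29 and 2.27 (2.35 ± 0.13), with replicate 2 above the rest. Ndufaf4 had levels of 0.33, 0.020, 0.061 and 0.20 (0.15 ± 0.14) with its brightest probe, which was highest on replicate 1.

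Ndufaf5 and Ndufaf7 modify arginine residues of core subunits, Ndufaf5 as a hydroxylase and Ndufaf7 as a methyltransferase. Ndufaf5 had levels of 3.30, 3.25, 3.24 and 3.16 (3.24 ± 0.059). Ndufaf7 had levels of 0.17, 0.60, 0.12 and 0.064 (0.24 ± 0.25), so that replicate 2 stood above the other 3 arrays. Ndufaf8, the partner of Ndufaf5, had levels of 4.72, 4.73, 4.60 and 4.35 (4.60 ± 0.18) and was lowest on replicate 4. Ndufaf6, an early factor, had levels of 2.06, 2.35, 2.02 and 1.99 (2.11 ± 0.17) and shared its high value on replicate 2 with Ndufaf3 and Ndufaf7.

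The paralogues Ndufa4 and Ndufa4l2 differed in whether signal was present. Ndufa4, named for complex I and since assigned to cytochrome c oxidase (complex IV), had levels of 6.55, 6.43, 6.43 and 6.29 (6.43 ± 0.10). Ndufa4l2, known in human and mouse cells as a target of hypoxia-inducible factor 1 that lowers complex I activity, had bounds of -4.48, -5.17, -4.65 and -4.52 with the brighter of its probes. Neither of its 2 probes was well above background on any array, and neither had the weaker mark on any array.

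Several members had more than 1 probe, 8 in all. In 5 of them the probes agreed in detection, and in 3 (Ndufab1, Ndufaf4 and Ndufaf7) 1 probe lacked signal on some or all arrays where another had it on all. The second Ndufab1 probe had bounds of -4.54, -4.03, -4.83 and -4.38, and that of Ndufaf7 -4.51, -3.50, -4.83 and -3.51. Ndufaf4 had a second probe with signal throughout, at -1.52, -2.08, -1.50 and -1.88. The third was marked on replicate 3 alone. The 2 probes of Ndufv3 carry accessions of different transcripts, and they had means of 5.09 ± 0.12 and 3.14 ± 0.11.

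**Figure D2:**
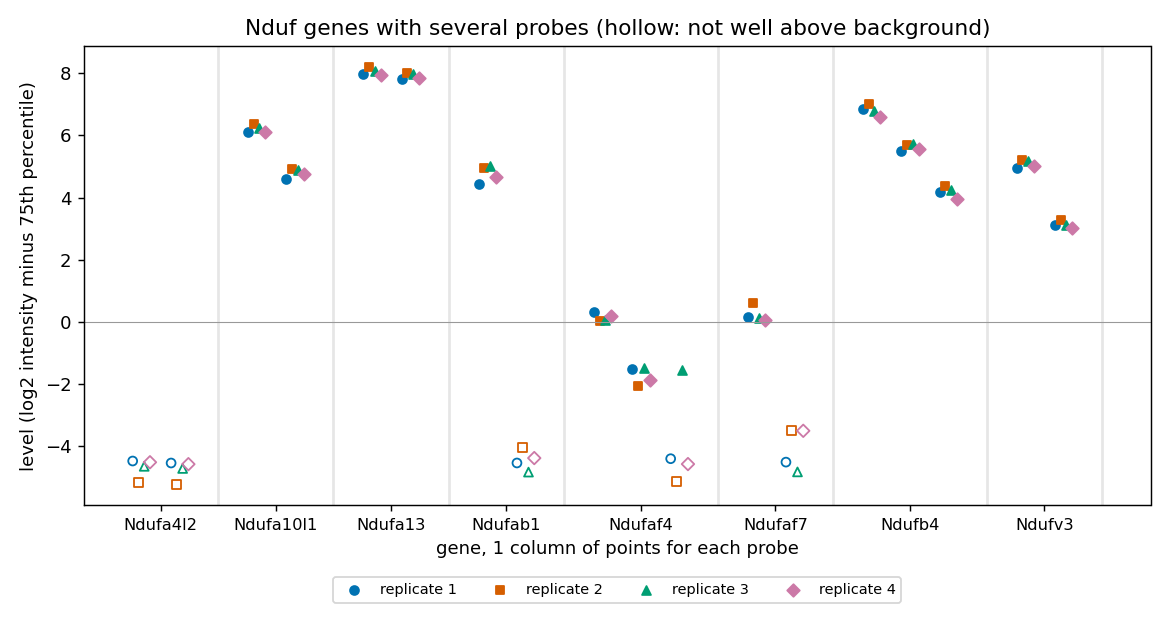
Level of every probe (log2 intensity minus the array's 75th percentile, vertical axis) of the 8 Nduf genes with several probes, 1 column of 4 points for each probe, hollow where the signal was not well above background. Ndufab1 and Ndufaf7 each have 1 probe with solid and 1 with hollow points only, and the third Ndufaf4 probe has 1 solid point.

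Many members have relatives by name. For 20 of the 42 the RefSeq table holds a pseudogene or a coding gene whose symbol extends theirs, with 7 pseudogenes and 4 coding relatives for Ndufb4, 5 pseudogenes for Ndufaf4, and 4 each for Ndufa13, Ndufa2 and Ndufa5. No sequences were compared, and whether transcripts of such relatives add to a probe's signal was not tested. Of these relatives, Ndufa4l2 and Ndufa10l1 had probes of their own, with the values given above.

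The replicates were then compared with each other. A gene's variance over the 4 arrays was set against that of genes of like brightness in a fit over all 14916 genes marked on at least 2 arrays (limma, one-sided F test, Benjamini-Hochberg adjustment). Of the 40 members tested 0 passed an adjusted p of 0.05, against 0.469% of all tested genes, and 0 had an unadjusted p under 0.05, against 5.06%. Ndufab1 came nearest (adjusted p = 0.987, limma), whose variance was 3.94 times that of the prior. A missed threshold does not show that the replicates are alike.

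The members' median SD between replicates was 0.136 log2 units, and that of all tested genes 0.161. It was 0.139 over the 10821 tested genes in the level range of the members detected on all arrays. The median ratio of a gene's variance to the prior at its level was 0.860 for the members and 0.851 for all tested genes. Of the 39 members with signal on all arrays, 35 kept their 4 arrays within 0.5 log2 units, against 75.8% of all genes with signal on all arrays. The median level was 5.57 over the tested members, 1.25 over all tested genes and 2.22 over those in the members' range. That share and the median SDs were therefore not matched on brightness. In 2 of the 40, Ndufa11 and Ndufaf3, 1 array stood apart from the other 3 by most of the range, as it did in 5.83% of all tested genes. Each member probe was a single spot. Among 819 probes spotted 10 times at levels above 3, the median SD was 0.073 between single spots of an array. Between arrays it was 0.117 after averaging the 10 spots, so that value is not the SD of a probe with a single spot.

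**Figure D3:**
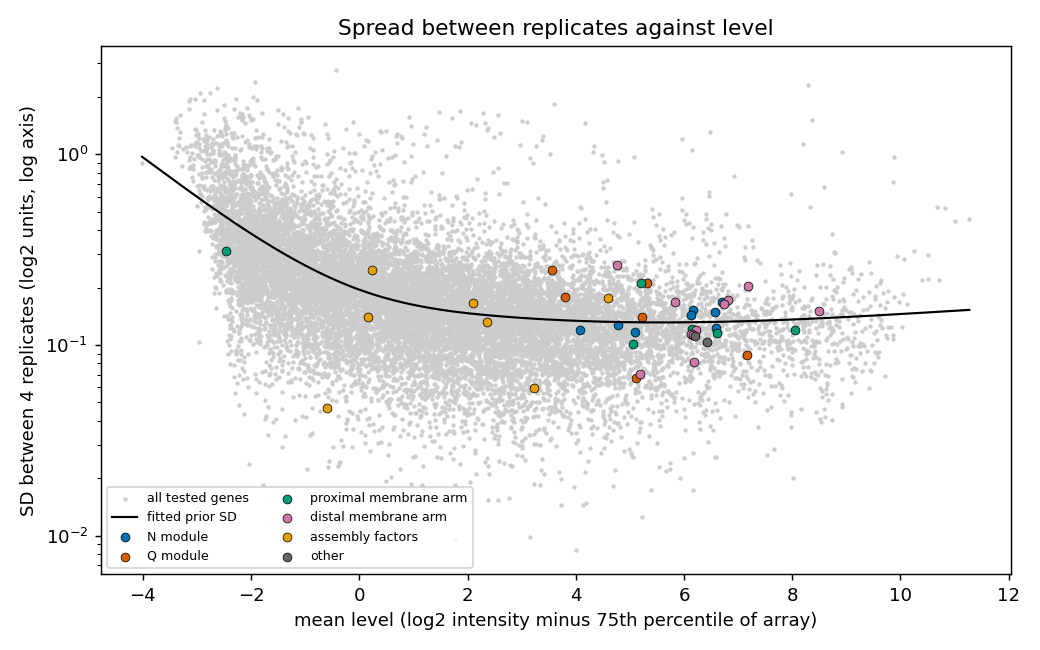
SD between the 4 replicates (log2 units, log axis) against mean level for all tested genes in grey and for 40 Nduf genes in colour, with the fitted prior as a line. The Nduf genes lie on both sides of the line, with Ndufaf1 the lowest at 0.047 and Ndufab1 the highest of those detected on all arrays at 0.26.

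Most members lay high on replicate 2 and low on replicate 4. On replicate 2, 37 of 40 were above their own mean (67.6% of all tested genes), and on replicate 3, 29 were (55.4%). On replicate 4, 36 of 40 were below it (55.9%), and on replicate 1, 25 were (59.6%). The highest level lay on replicate 2 in 26 members (38.6% of all tested genes), on replicate 3 in 7 (19.1%), on replicate 1 in 6 (21.9%) and on replicate 4 in 1 (20.4%), which was Ndufaf1. The lowest lay on replicate 4 in 23 (32.5%), on replicate 1 in 14 (39.4%), on replicate 2 in 2 (13.4%) and on replicate 3 in 1 (14.7%). The 2 lowest on replicate 2 were Ndufaf1 and Ndufaf4. Over tested genes in the level range of the members detected on all arrays, 45.2% were highest on replicate 2 and 35.4% lowest on replicate 4. The place of the highest level depended on the scaling. With the 75th percentile over detected probes it lay on replicate 2 in 14 members, on replicate 3 in 14 and on replicate 1 in 12, and with quantile normalization on replicate 1 in 17 and on replicate 2 in 12. With another background correction (normexp) it lay on replicate 2 in 28. The lowest level lay on replicate 4 in 19, 21 and 33 members under these 3 alternatives.

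Taken as distance from a gene's own mean, the median over the 40 members was -0.057, 0.12, 0.052 and -0.095 log2 units on replicates 1, 2, 3 and 4. Over all tested genes it was -0.045, 0.069, 0.015 and -0.024, so that part of the pattern was common to the arrays. Over tested genes in the level range of the members detected on all arrays it was -0.045, 0.079, 0.011 and -0.032. Those genes share the members' range but were dimmer, with a median level of 2.22 against 5.57 for the members. Replicate 2 minus replicate 4 had a median of 0.23 over the members and 0.089 over all tested genes, and it was above 0 in 38 members (63.6% of all tested genes). With the 75th percentile over detected probes this median was 0.11 against -0.034, with quantile normalization 0.10 against 0.022, and with normexp 0.45 against 0.13. The members' median on replicate 2 alone was 0.046, 0.036 and 0.22 in the same order. Replicate 4 had the lowest median deviation of the members under each of these scalings. Replicates 1 and 3 had no settled sign. On replicate 1 the members' median deviation was -0.0077, 0.018 and 0.062 under the same 3 alternatives, and on replicate 3 it was 0.036, -0.0024 and -0.062. All 4 arrays shared a slide, so position on the slide and replicate cannot be told apart.

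By module, with the scaling first described, the median deviation on replicate 4 was -0.072 for the N module, -0.11 for the Q module, -0.13 for the proximal and -0.10 for the distal membrane arm and -0.083 for the assembly factors. On replicate 2 it was 0.13, 0.16, 0.087, 0.12 and 0.13 in the same order. On replicate 1 the N module lay lowest, at -0.14, with Ndufa7 the 1 of 8 genes above its own mean, while the assembly factors lay at 0.040. On replicate 3 the assembly factors were the only module below 0, at -0.065. None of these differences between modules was tested.

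**Figure D4:**
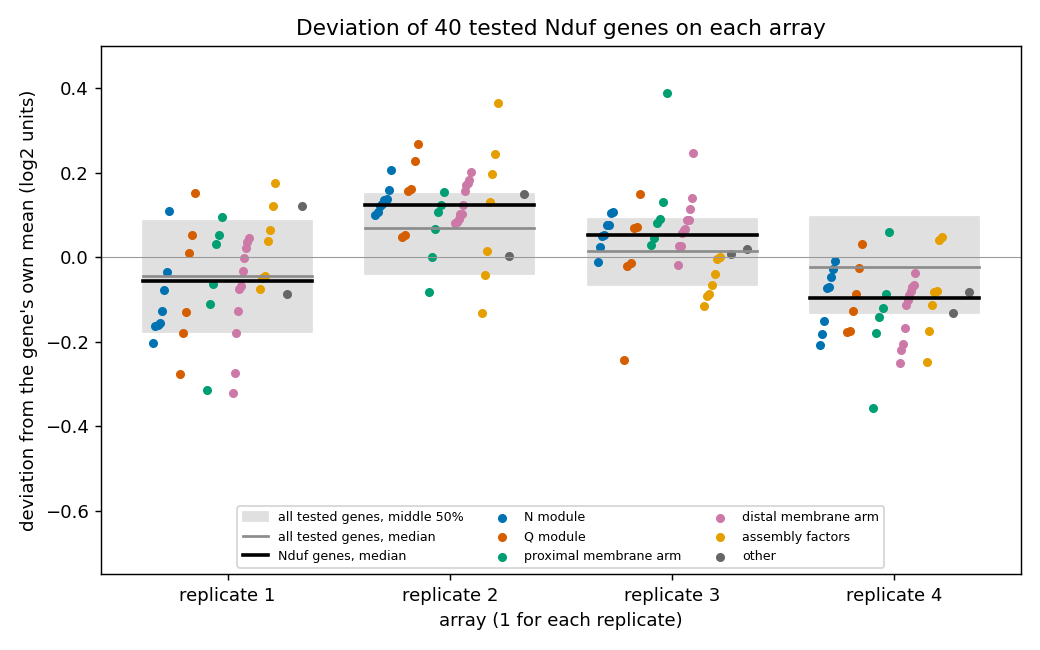
Deviation of each of 40 tested Nduf genes from its own mean (log2 units, vertical axis) on each array, coloured by part of complex I, with the members' median as a black line and the median and middle 50% of all tested genes in grey. On replicate 2 the points lie mostly above 0 (37 of 40) and on replicate 4 mostly below (36 of 40).

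Other genes of respiration gave the following values. Of the assembly factors without the Nduf prefix, 10 of 12 had a probe, and all 10 had signal on all arrays, among them Acad9 (3.04 ± 0.14), Ecsit (4.56 ± 0.14) and Tmem126b (3.74 ± 0.18), members with Ndufaf1 of a complex that builds the membrane arm, and Timmdc1 (-0.20 ± 0.22). Their median deviation was -0.14, 0.18, 0.010 and -0.036 on replicates 1 to 4. Of the 10, 0 passed the variance test and 0 had an unadjusted p under 0.05 (limma), against 0.469% and 5.06% of all tested genes.

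Nuclear-encoded genes of complexes II to V, chosen by symbol, numbered 46 with a probe, including the pseudogene Cox6c-ps1, which had no signal. Of the 46, 42 had signal on all arrays (91.3%, against 47.9% of all named genes). Their median deviation was -0.084, 0.084, 0.080 and -0.080, and 33 of 42 tested were below their own mean on replicate 4 (55.9% of all tested genes), beside 36 of 40 in complex I. Under the 3 other scalings, in the order above, this count was 24, 32 and 42 of 42, beside 32, 32 and 37 of 40 in complex I. Their median on replicate 1 changed sign, at -0.035, 0.036 and 0.086. In the variance test 0 of the 42 passed, against 0.469% of all tested genes. An unadjusted p under 0.05 was found for 1, Cox7a2l (adjusted p = 0.683, limma), against 5.06% of all tested genes. The median SD was 0.108 log2 units in these 42 and 0.136 in complex I, a difference that was not tested.

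Among regulators of mitochondrial biogenesis, 8 of 9 had signal on all arrays. The factors whose motifs were searched had levels of -0.11 ± 0.19 for Nrf1, -0.56 ± 0.30 for Gabpa, 0.70 ± 0.18 for its partner Gabpb1 and -0.10 ± 0.14 for Yy1. The nuclear receptor gene Esrra and the mitochondrial transcription factor gene Tfam had levels of 4.36 ± 0.13 and 2.35 ± 0.094. Ppargc1a, the coactivator PGC-1alpha, was not well above background on any array, while its relatives Ppargc1b (-0.76 ± 0.15) and Pprc1 (1.47 ± 0.087) were on all. On replicate 4, with the scaling first described, the 8 factors with signal had a median deviation of 0.00063, and 4 were above their own mean. Over all tested genes that median was -0.024.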

How the data were processed

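RNA of 4 exposed replicates was hybridised to 1-colour Agilent arrays (100 ng, Cy3; RNA integrity number above 7.5, per the labels' protocols). The deposited files hold intensity per spot from Agilent Feature Extraction 11.0.1.1, background-subtracted and detrended within the array but not normalized between arrays, per the file headers. From these, log2 intensity was averaged over a probe's spots, leaving out control and non-uniform spots, and each array was centred on the 75th percentile of its probes. A probe had signal where at least 50% of its spots were marked well above background, and a gene where 1 of its probes did. Accessions without version were looked up in the RefSeq gene table (GRCr8), for names alone, which named 21109 of 45598 probes (46.3%). The probe with the highest mean stood for a gene. The variance test used limma 3.58.1 in R 4.3.3. It took a squeezeVar prior with a trend on level, fitted on genes marked on at least 2 arrays. It was also run on data simulated from that fitted prior, which cannot show that the prior suits these arrays. Promoter letters are from RefSeq.

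Because the files give no mean spot signal, the alternative background correction (normexp, offset 50) used median signals. Other alternatives were 2 scalings, 2 filters, 2 priors, the mean over probes, other detection marks and leaving out each replicate. The members and lists were chosen with earlier results of these data known. Values in every array were given for the core subunits, the assembly factors, Ndufa4, Ndufa4l2 and Ndufa12, members without signal throughout, members with disagreeing probes and the 5 widest spreads, except 1 gene whose values are not reported here. Ndufa6, Ndufa13, Ndufb4, Ndufb8, Ndufa10l1 and Cox7a2l were given more detail after their values were seen. P-values compare a gene's variance over these 4 samples with that of genes of like brightness, and the number of samples limits the precision.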

Additional observations from a re-analysis of the deposited data

Results flagged for a closer look

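In 2 of the 40 tested members 1 array stood apart from the other 3, with a gap to its nearest neighbour beyond the Dixon limit for 4 samples. Such gaps occur by chance in about 1 of 20 groups of 4, and 5.83% of all tested genes had one. Ndufaf3 stood apart on replicate 2, at 2.55 against 2.27 to 2.30 on the others, with a gap of 0.881 of the range. Ndufa11 stood apart on replicate 1, at 4.89 against 5.27 to 5.34, with a gap of 0.842 of the range. Neither passed the variance test (adjusted p = 0.987 for both, limma).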

How the results depend on the processing

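No member passed the variance test under any of the 12 alternatives, with adjusted p between 0.443 and 0.999 (limma). The number at an unadjusted p under 0.05, which was 0, became 2 without the filter on dim genes (Ndufab1 among them), 1 with a robust prior (Ndufab1), and between 0 and 1 when a replicate was left out (1 without replicate 1, and 1, Ndufab1, without replicate 4). Over all genes the count of calls, 70, was 0 with the 75th percentile over detected probes, 1 with quantile normalization, 236 with another background correction, 357 without the filter, 207 under robust estimation of the prior, 0 when the prior had no trend, and between 27 and 161 without 1 replicate (without replicate 2 it was 27, without replicate 3 161, and without replicate 4 43). The cause was not tested. The 39 members with signal on all arrays remained 39 with each replicate left out, and were 40 on at least 2 arrays and 41 with the weaker mark. The members' median SD lay between 0.104 and 0.210. Levels moved by less than 1 SD in 290 of 420 recomputations. That count includes the 75th percentile over detected probes and quantile normalization, which place the zero of the scale elsewhere. Every member's level moved under both, so the count does not measure how stable the levels were. The other levels that moved did so with the other background correction or with the mean over probes. No paired analysis was possible because only 1 group was analysed. A signal below background gives only a bound.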

Other observations

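The third probe of Ndufaf4 was at -1.55 on replicate 3, where it was marked well above background, and at -4.40, -5.14 and -4.58 on replicates 1, 2 and 4, which are bounds. The brightest Ndufaf4 probe had 0.061 on replicate 3, within its range on the other arrays of 0.020 to 0.33.

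In complex IV, Cox7c, a subunit of cytochrome c oxidase, was not well above background on any array. Whether its transcript was absent or was not reported by the array was not tested. Cox4i1, Cox5a, Cox6a1 and Cox6b1 of the same complex had levels of 9.03 ± 0.11, 7.23 ± 0.15, 9.45 ± 0.14 and 0.54 ± 0.13. Tissue-restricted forms were divided, with signal on all arrays for Cox6a2 (1.82 ± 0.19), Cox4i2 (-0.15 ± 0.29) and Cox6b2 (2.09 ± 0.097), on 1 array for Cox8b and on none for Cox8c. These genes were chosen after their values were seen.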
